A study of Danio rerio with 6 samples.

Results

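In the follicles of ybx1 mutant zebrafish, 117 of the 32057 listed genes formed a set of well-expressed transcripts that were more abundant than in wild-type follicles by a moderate fold. The transcripts were chosen by their measured CPM, the count divided by the library's total count, times 1000000. The mean of a gene over the mutant libraries had to be at least 20 CPM, and its mean over the mutant libraries divided by that over the wild-type libraries had to be at least 2 and below 8. In addition, every mutant library had to lie above every wild-type library. Because the rule used the genotype contrast in all libraries, that contrast is described for these transcripts and not tested. The set holds 0.365% of all listed genes and 1.43% of the 8201 genes with a mean of at least 20 CPM in the mutant. The mirrored rule, with at least 20 CPM in the wild type and the ratio turned around, was met by 46 genes.

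RNA was sequenced from ovarian follicles isolated at the pre-vitellogenic stage, the stage before yolk is taken up, in fish of the AB strain. The wild-type group (WT, ybx1+/+) and the mutant group (ybx1-/-) had 3 libraries each, and no treatment or further allele is recorded for either. The series describes ovaries in which mutant follicles stop at the step from this stage to early vitellogenesis, and the comparison asks how the transcriptomes differ before that step. The labels give neither the lesion of the ybx1 allele nor the age of the fish, and they do not say whether a library came from 1 fish or several, so the spread between libraries may be technical in part.

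Ybx1 is a cold-shock-domain protein that binds RNA and DNA and is known in vertebrate oocytes as a component of particles that store messenger RNA. A follicle is an oocyte enclosed by granulosa cells on a basement membrane, with theca and stromal cells, vessels and blood cells outside it. Granulosa and theca cells make steroids and matrix, while the oocyte holds most of the stored RNA and mitochondria.

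The YBX1 transcript itself was 276, 264 and 298 CPM in the 3 WT libraries and 252, 241.2 and 230 CPM in the 3 mutant libraries, each in the order of their numbers. It was lower in the mutant by a log2 fold change of -0.21 (SE 0.06, adjusted p = 0.0244, edgeR's quasi-likelihood test), and the groups did not overlap. The call was lost without WT replicate 1, WT replicate 3, mutant replicate 2 or mutant replicate 3 (edgeR adjusted p = 0.053, 0.0995, 0.0706 and 0.084) and with upper-quartile factors (adjusted p = 0.0527). A lesion need not remove the transcript, so that this level does not check the genotype labels. All 38 matched genes of the oocyte and egg coat list were counted in every library, with a summed level between 26958 and 29365 CPM. Library totals ran from 16600019 to 37764782 counts, and each pair of libraries of a genotype differed by more than counting noise (chi-square per degree of freedom from 5.31 to 24.1). Over the 17385 genes tested, the median log2 fold change was 0.01.

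The transcripts of the set took 0.543%, 0.568% and 0.569% of all counts in the WT libraries, and 1.57%, 1.57% and 1.55% in the mutant libraries. Most of them lay close to the lower limits of the rule. The ratio was between 2 and 3 for 89 genes, between 3 and 4 for 14 and between 4 and 8 for 14, with a median of 2.37 and a maximum of 6.93. The mean mutant level was between 20 and 50 CPM for 76 genes, between 50 and 100 CPM for 21, between 100 and 500 CPM for 12 and at least 500 CPM for 8. The lowest count of any of them in any library was 54. All 117 passed the filter on low counts. Over the 17385 genes tested, edgeR called 18.6% higher, 15.3% lower and 33.9% in either direction at an adjusted p under 0.05. All 117 are among the higher calls, which follows from how they were chosen and is not read as a test of them. Separation of the libraries was likewise part of the rule, and 18.4% of the 8201 genes with at least 20 CPM in the mutant, or 25.3% of the genes tested, had every mutant library above every WT library. In whole follicles, more cells of one type and more RNA per cell cannot be told apart, and this holds for every difference below.

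**Figure D1:**
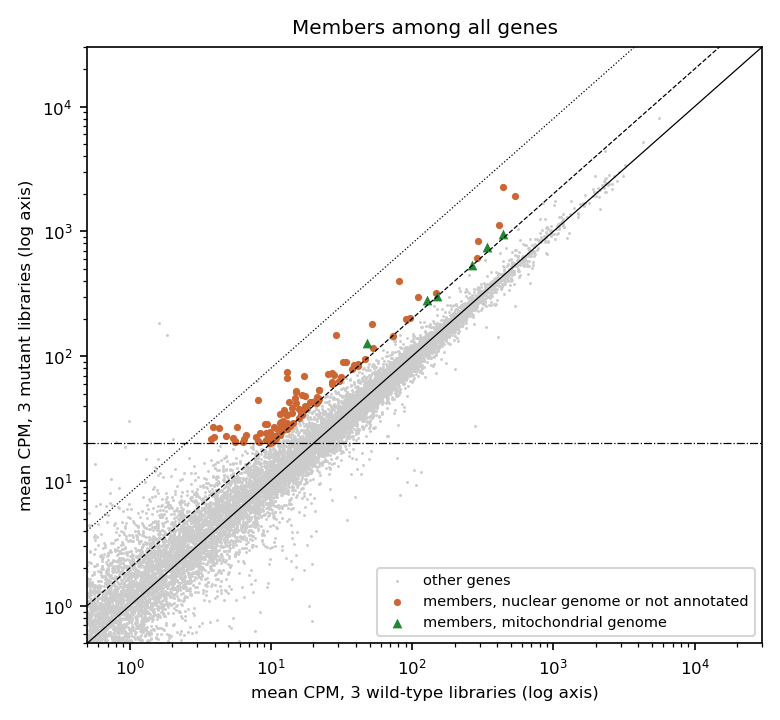
Mean CPM over 3 mutant libraries (vertical, log axis) against mean CPM over 3 WT libraries (horizontal, log axis) for each gene, with the 117 transcripts of the set marked and the ratio limits of 2 and 8 drawn as lines. Most of the marked genes lie in the band just above the line for a ratio of 2, and most have mean mutant levels between 20 and 50 CPM.

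Of the set, 6 messenger RNAs come from the mitochondrial genome, which encodes 13 proteins of the respiratory chain and the ATP synthase. MT-ND1, a subunit of complex I, was 368, 328 and 323 CPM in WT and 767, 766 and 723 CPM in mutant libraries, a ratio of 2.21. MT-ND5, another complex I subunit, was 424, 468 and 425 CPM in WT and 851, 1013 and 1011 CPM in mutant libraries, a ratio of 2.18. MT-ATP6, a subunit of the ATP synthase, was 58.3, 39.4 and 46.6 CPM in WT and 142, 131 and 109 CPM in mutant libraries, a ratio of 2.64. In each case the lowest mutant library was above the highest WT library, as the rule requires. MT-ND2, MT-ND6 and mt-atp8 had ratios of 2.04, 2.02 and 2.21. The other 7 mitochondrial messenger RNAs missed the limit of 2, with ratios from 1.60 for MT-CO2 up to MT-CYB, which fell just short of the limit. All 7 were called higher by edgeR, with a largest adjusted p of 6.12e-05. MT-CO1, the catalytic subunit of cytochrome oxidase, was 2462, 2323 and 2186 CPM in WT and 4467, 4463 and 4236 CPM in mutant libraries, with a log2 fold change of 0.92 (SE 0.06, adjusted p = 2.73e-06). The 13 messenger RNAs together took 0.731% ± 0.0346 of the counts in WT and 1.38% ± 0.0505 in mutant libraries (SD, n = 3).

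Few nuclear genes of the respiratory chain were called in either direction. Of 51 tested, edgeR called 3 higher (5.88%) and 6 lower (11.8%), beside 18.6% and 15.3% of all genes tested. The median of their log2 fold changes was -0.04, beside 0.01 for all genes tested. Those small counts moved when 1 library was left out, between 1 and 4 called higher and between 2 and 7 called lower. Called higher were 1 gene without WT replicate 2, WT replicate 3 or mutant replicate 2, and called lower were 3 genes without WT replicate 1 or WT replicate 3 and 2 without mutant replicate 3. The summed level of the 52 matched nuclear genes was 5777, 5326 and 5515 CPM in WT and 5674, 5355 and 5109 CPM in mutant libraries, and these ranges overlap. ATP6 overlaps atp8, and ND6 lies on the strand opposite to ND5. How reads of overlapping genes were assigned, and whether strand was used, is not given in the sources used here, so the levels within these pairs are uncertain.

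**Figure D2:**
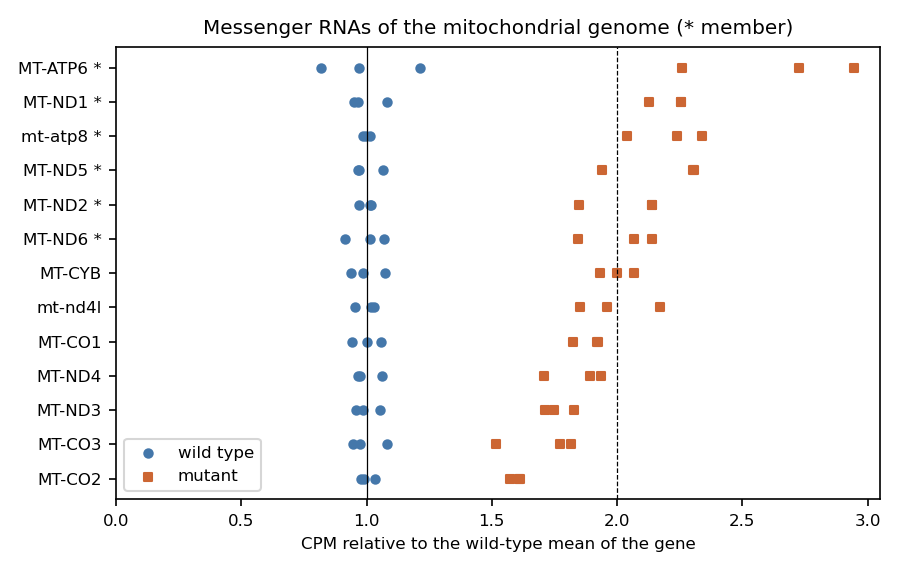
CPM of each library divided by the mean WT CPM of the gene (horizontal, no unit) for the 13 messenger RNAs of the mitochondrial genome, with 1 point per library and stars at the 6 in the set. All 13 have every mutant library above every WT library, which the rule requires of the 6 in the set. Ratios of the means run from 1.60 to 2.64.

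Matrix genes were the largest group with a role, and 14 transcripts encode proteins of the extracellular matrix, its modifying enzymes or factors that bind to it, with ratios from 2.02 to 4.73. The most highly counted were a pair of MFAP4 genes. MFAP4 is a fibrinogen-related protein of elastic microfibrils, and one zebrafish copy is used as a marker of macrophages. One MFAP4 gene (ENSDARG00000116066) was 612, 498 and 504 CPM in WT and 1896, 1931 and 1961 CPM in mutant libraries, a ratio of 3.59. The second (ENSDARG00000111491) was 489, 391 and 353 CPM in WT and 1105, 1130 and 1146 CPM in mutant libraries, a ratio of 2.74. For both genes the mutant libraries lay within a narrow band, above all WT libraries as the rule requires. They accounted for most of the counts of the immune cell list. Without them, that list summed to 49.5 to 56.0 CPM in WT and 54.6 to 60.4 CPM in mutant libraries, which overlap. The macrophage gene MPEG1 was at most 4.45 CPM in any library over its 3 listed copies, one of which had no count, and ptprc, the leukocyte antigen CD45, was 0.678, 1.14 and 0.865 CPM in WT and 2.47, 2.84 and 3.31 CPM in mutant libraries. Near-identical copies of MFAP4 may share reads, which makes the split between the copies uncertain.

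The set holds 3 genes of type I collagen, the main fibrous collagen of stroma. COL1A1 was 12.1, 11.6 and 11.9 CPM in WT and 32.1, 28.7 and 27.5 CPM in mutant libraries, a ratio of 2.48. Its paralogue col1a1a had a ratio of 2.12 and COL1A2, the partner chain, a ratio of 2.49. The libraries of each genotype were tight around these values. That every mutant library lay above the WT range was required by the rule. FN1, fibronectin, was 14.4, 14.8 and 16.2 CPM in WT and 51.7, 49.3 and 55.0 CPM in mutant libraries, a ratio of 3.44. IGFBP7, a secreted protein that binds insulin-like growth factors and is found in vessel walls, was 6.71, 5.84 and 4.78 CPM in WT and 27.4, 27.5 and 27.0 CPM in mutant libraries, a ratio of 4.73. This was the highest ratio among the matrix transcripts. Basement membrane components were also present, namely LAMA1, a laminin chain, with a ratio of 2.71, and COL4A1, a type IV collagen chain, with 2.21. CCN2, a matrix-bound growth factor modulator, was 36.5, 29.6 and 30.8 CPM in WT and 85.1, 90.01 and 92.9 CPM in mutant libraries, a ratio of 2.76. HAPLN4, a link protein of hyaluronan and proteoglycans, had a ratio of 2.81, and rcn3, a chaperone of the secretory pathway involved in collagen production, one of 3.19. CHPF and CHST15, enzymes that build and sulphate chondroitin chains, stood lower, at 2.02 and 2.36.

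**Figure D3:**
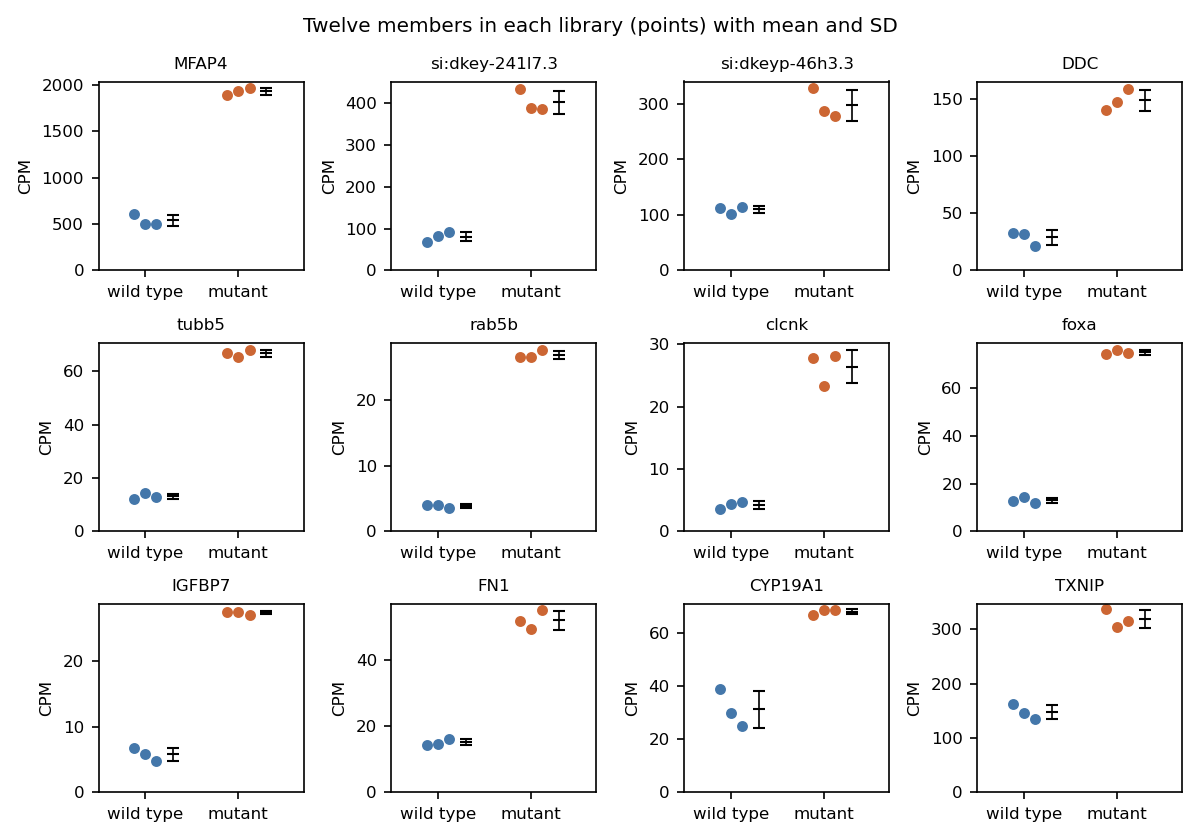
CPM in each of the 6 libraries for 12 transcripts of the set, 1 panel per gene, with WT and mutant libraries side by side. In every panel the 3 mutant points lie above the 3 WT points, as the rule requires. The mutant points of MFAP4 (ENSDARG00000116066) sit between 1896 and 1961 CPM.

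Markers of cells around the oocyte were counted by list. Of 23 tested genes of the theca and stroma list, 14 (60.9%) were called higher and 0 lower by edgeR, 4 of them in the set. Over all genes tested, edgeR called 18.6% higher and 15.3% lower. The log2 fold changes of the list had a median of 0.45. At an unadjusted p under 0.05 edgeR placed 1 gene lower, DESeq2 called 0 lower, and edgeR called 1 lower without WT replicate 2. SPARC, a collagen-binding matrix protein outside the set, was 4.14, 3.73 and 4.74 CPM in WT and 9.96, 9.76 and 10.1 CPM in mutant libraries, with a log2 fold change of 1.23 (SE 0.13, adjusted p = 5.86e-05). MMP2, a gelatinase, was 29.4, 24.0 and 19.2 CPM in WT and 41.5, 42.4 and 43.9 CPM in mutant libraries, with a log2 fold change of 0.82 (SE 0.12, adjusted p = 0.000622). Without the transcripts of the set, the list summed to between 317 and 336 CPM in WT and between 387 and 397 CPM in mutant libraries, which do not overlap. FBLN1 had no count in any library.

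The endothelium list gave a similar count. Of 13 genes tested, edgeR called 8 higher (61.5%, beside 18.6% of all genes tested) and 0 lower. The list had a median log2 fold change of 0.92, but 5 were called higher without mutant replicate 3. At an unadjusted p under 0.05 edgeR placed 0 genes lower, and DESeq2 called 6 higher and 0 lower. The set holds 1 of them, kdrl, a receptor for vascular endothelial growth factor, at 13.4, 16.1 and 11.2 CPM in WT and 24.6, 27.0 and 30.8 CPM in mutant libraries, a ratio of 2.02. The other markers of vessels summed to between 33.7 and 34.1 CPM in WT and between 54.6 and 58.5 CPM in mutant libraries. Red blood cell markers were few. Of 9 tested, 2 (22.2%) were called higher by edgeR, beside 18.6% of all genes tested, and 0 lower. These counts were the same at an unadjusted p under 0.05, while 1 was called lower by DESeq2 and 2 without WT replicate 1. Of the 2 called higher, tfr1a, the transferrin receptor that takes up iron, is in the set and so higher by selection. It was 56.5, 59.8 and 41.8 CPM in WT and 108, 115 and 126 CPM in mutant libraries. Without tfr1a this list summed to 13.5 to 20.01 CPM in WT and 17.4 to 18.8 CPM in mutant libraries, so that the remaining red blood cell markers overlapped between genotypes. Of 25 immune genes tested, 9 (36%) were called higher, 2 of them in the set, and 3 (12%) lower. Over all genes tested these shares were 18.6% and 15.3%. The immune genes had a median of 0.08, and 1 was called lower without mutant replicate 1 or mutant replicate 3.

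Of 35 granulosa genes tested, 21 (60%) were called higher, 3 of them in the set, and 1 (2.86%) lower. Over all genes tested these shares were 18.6% and 15.3%. The log2 fold changes of the granulosa list had a median of 0.60. With 1 library left out, 16 to 20 were called higher, and the gene called lower lost that call without WT replicate 1 or mutant replicate 2. Without the transcripts of the set, the list summed to between 1553 and 1764 CPM in WT and between 1848 and 2131 CPM in mutant libraries. The oocyte list had its calls in the other direction. Of 38 tested by edgeR, 0 were called higher, 8 lower and 30 had no call, with a median of -0.06. The lower calls were 21.1% of the list, beside 15.3% over all genes tested. Without mutant replicate 2, 1 was called higher and 5 lower. The list summed to 29098, 27143 and 28584 CPM in WT and 29365, 27324 and 26958 CPM in mutant libraries, which overlap. At an unadjusted p under 0.05 edgeR placed 4 higher, and DESeq2 called 0 higher and 10 lower. The egg coat gene zp3c was 465, 420 and 448 CPM in WT and 332, 311 and 304 CPM in mutant libraries, with a log2 fold change of -0.49 (SE 0.06, adjusted p = 0.000123). DDX4, the germ-cell helicase vasa, did not pass the test, with a log2 fold change of -0.10 (SE 0.05, adjusted p = 0.184). No oocyte gene of the list is in the set. The part of cell composition in the levels of the 117 transcripts was not tested.

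**Figure D4:**
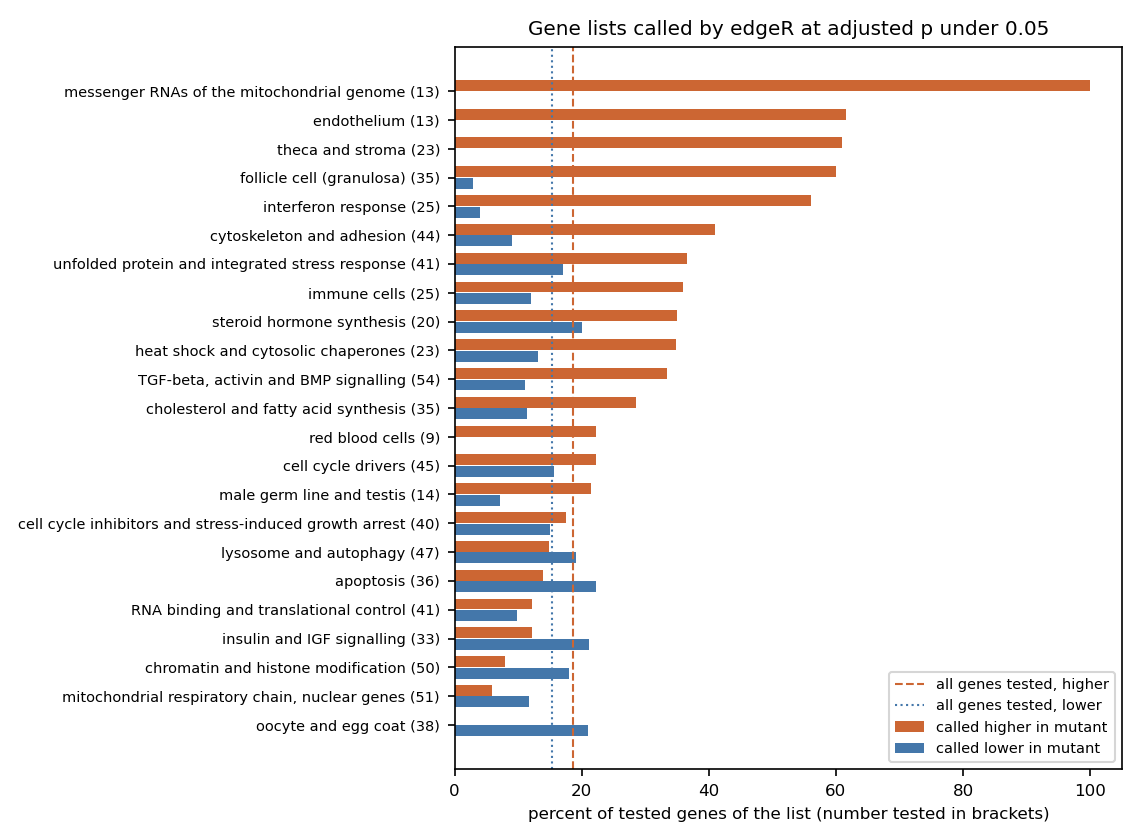
Percent of the tested genes of each list that edgeR called higher (upper bar) or lower (lower bar) in the mutant, with the number tested in brackets and lines at 18.6% and 15.3%, the shares over all genes tested. The granulosa, stroma and endothelium lists have most of their calls in the higher direction, with 21, 14 and 8 genes, and the oocyte list has 8 lower calls and 0 higher ones.

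Steroid synthesis and its regulators contributed 4 transcripts with ratios from 2.04 to 2.18. CYP19A1, the gonadal aromatase that makes oestrogens from androgens, was 38.9, 30 and 25.0 CPM in WT and 67.1, 68.6 and 68.6 CPM in mutant libraries. The WT libraries were more spread than the mutant ones, and the groups did not overlap, as the rule requires. NR5A1, steroidogenic factor 1, was 10.1, 10.1 and 9.64 CPM in WT and 19.3, 20.5 and 20.9 CPM in mutant libraries, the lowest mean mutant level in the set. HSD11B2, which oxidises cortisol to cortisone, had a ratio of 2.17. Calls over the whole pathway went both ways. Of 20 tested genes of steroid synthesis, 7 (35%) were called higher, 2 of them in the set, and 4 (20%) lower. Their log2 fold changes had a median of 0.10. The lower count was 1 without WT replicate 1 or mutant replicate 2, and 2 without mutant replicate 1. Over all genes tested, edgeR called 18.6% higher and 15.3% lower. CYP11A1 (ENSDARG00000002347), the side-chain cleavage enzyme that starts the pathway, was 263, 256 and 247 CPM in WT and 232, 217 and 222 CPM in mutant libraries, with a log2 fold change of -0.19 (SE 0.05, adjusted p = 0.0115). This call was lost without WT replicate 1 or mutant replicate 2 (adjusted p = 0.0525 and 0.0567 by edgeR). hsd3b1, which acts 1 step later, was called higher, with a log2 fold change of 0.49 (SE 0.12, adjusted p = 0.0128), but not without WT replicate 2 or WT replicate 3 (adjusted p = 0.0536 and 0.0605). NR5A2, a relative of NR5A1 that misses the level limit of the set, was 1.43, 1.63 and 0.865 CPM in WT and 5.35, 4.88 and 6.51 CPM in mutant libraries, with a log2 fold change of 2.13 (SE 0.23, adjusted p = 8.74e-05).

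The set holds a pair of enzymes of aromatic amine synthesis and an enzyme that makes the cofactor of DDC. DDC, the decarboxylase that makes dopamine and serotonin, was 33.1, 32.2 and 21.4 CPM in WT and 141, 148 and 159 CPM in mutant libraries, a ratio of 5.16. TPH1, the tryptophan hydroxylase that acts before it on the way to serotonin, was 12.2, 15.7 and 14.2 CPM in WT and 39.4, 37.1 and 38.1 CPM in mutant libraries, a ratio of 2.72. PDXK, the kinase that makes pyridoxal phosphate, had a ratio of 2.05. All mutant libraries of these 3 genes were above all WT libraries, as the rule requires, and the gap was widest for DDC.

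Lipid and sterol handling accounted for 7 transcripts. ANGPTL4, a secreted inhibitor of lipoprotein lipase, was 89.3, 88.9 and 94.0 CPM in WT and 186, 201 and 210 CPM in mutant libraries, a ratio of 2.19. MVD, the decarboxylase of the mevalonate pathway to cholesterol, was 15.9, 14.8 and 14.8 CPM in WT and 55.0, 51.0 and 50.8 CPM in mutant libraries, a ratio of 3.45. Other genes of the pathway varied. HMGCS1, an earlier enzyme, was 145, 137 and 138 CPM in WT and 154, 153 and 134 CPM in mutant libraries and did not pass the test, with a log2 fold change of 0.07 (SE 0.06, adjusted p = 0.426). FDPS, a later enzyme, had a log2 fold change of 0.05 (SE 0.10, adjusted p = 0.756). Of 35 tested genes of cholesterol and fatty acid synthesis, 10 (28.6%) were called higher, MVD among them, and 4 (11.4%) lower, with a median of 0.02. Over all genes tested the shares were 18.6% and 15.3%. The counts of the list were 6 and 2 without WT replicate 3 or mutant replicate 2. Its lower count was 2 without WT replicate 1 and with upper-quartile factors. The other lipid genes of the set were ABCA1, an exporter of cholesterol, with a ratio of 2.26, smpd5, a sphingomyelinase, with 2.41, and scp2b, a sterol carrier, with 2.12. The transporter abcg2a and OSBPL10, an oxysterol-binding protein relative, each had a ratio of 2.06.

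Among other metabolic genes, TXNIP, an inhibitor of thioredoxin and of glucose uptake, was 163, 146 and 136 CPM in WT and 338, 305 and 315 CPM in mutant libraries, a ratio of 2.16. CBR1, a carbonyl reductase, was 14.0, 20.2 and 17.2 CPM in WT and 63.0, 71.8 and 74.0 CPM in mutant libraries, a ratio of 4.07. The groups of both genes did not overlap, as the rule requires, and WT libraries of CBR1 differed among themselves. GLUL, glutamine synthetase, had a ratio of 2.63, SELENOM, a selenoprotein of the endoplasmic reticulum, one of 2.83, and PFKFB3, an activator of glycolysis, one of 2.23. Of proteins that work in mitochondria but are encoded in the nucleus, the set holds ISCU, the scaffold for iron-sulphur clusters, and MTX1, a part of the outer-membrane sorting machinery, with ratios of 2.304 and 2.03. Another ISCU gene, outside the set, was 46.6, 45.8 and 45.3 CPM in WT and 37.6, 44.7 and 42.2 CPM in mutant libraries. It did not pass edgeR's test (log2 fold change -0.14, SE 0.08, adjusted p = 0.171).

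The transporters included clcnk, a chloride channel of the kidney type, at 3.58, 4.46 and 4.78 CPM in WT and 27.7, 23.3 and 28.1 CPM in mutant libraries, a ratio of 6.18. SLC5A5, the sodium-iodide symporter known from the thyroid, was 5.54, 5.30 and 6.01 CPM in WT and 21.9, 20.3 and 19.7 CPM in mutant libraries, a ratio of 3.68. SLC3A2, the heavy chain of amino acid exchangers, had a ratio of 3.17. The folate receptor FOLR2, the potassium channel subunit KCNS3 and the cationic amino acid transporter relative SLC7A14 were nearer to the limit, at 2.37, 2.13 and 2.09.

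Membrane traffic genes spanned the widest range of ratios. The small GTPase rab5b, which acts on early endosomes, was 4.07, 4.096 and 3.50 CPM in WT and 26.6, 26.6 and 27.6 CPM in mutant libraries, a ratio of 6.93 and the highest of the set. VPS8, a subunit of an endosomal tethering complex, had a ratio of 2.93. RAB3GAP1, a Rab regulator, had one of 2.58, and RAB6A, a Rab of the Golgi, one of 2.56. The other traffic and membrane genes were rabgap1l, ITM2B, TSPAN18, FLOT1 and appa, a homologue of the amyloid precursor protein, all at most 2.48. Of these, appa had the widest mutant libraries, at 123, 133 and 181 CPM against 83.0, 73.7 and 61.5 CPM in WT.

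Cytoskeletal genes in the set included a pair of tubulins. The beta tubulin tubb5 was 12.2, 14.2 and 12.9 CPM in WT and 66.8, 65.2 and 67.8 CPM in mutant libraries, a ratio of 5.08. The alpha tubulin tuba1b was 22.2, 21.6 and 21.9 CPM in WT and 54.8, 52.5 and 53.8 CPM in mutant libraries, a ratio of 2.45. Libraries within a genotype differed little for either gene. PLS3, an actin bundler, the class I myosin myo1hb and the claudin CLDN11 of tight junctions had ratios of 2.53, 2.60 and 2.06. Of 44 tested genes of the cytoskeleton and adhesion list, 18 (40.9%) were called higher, 2 of them in the set, and 4 (9.09%) lower. Their log2 fold changes had a median of 0.23. Over all genes tested the shares were 18.6% and 15.3%.

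Signalling accounts for 10 transcripts. RTKN2 was 48.9, 56.6 and 50.5 CPM in WT and 176, 184 and 186 CPM in mutant libraries, a ratio of 3.50. CMKLR1, the chemerin receptor, was 5.80, 4.28 and 6.22 CPM in WT and 22.3, 22.5 and 21.6 CPM in mutant libraries, a ratio of 4.07, the highest of this group. The growth factor egf and the small GTPase kras had ratios of 3.50 and 3.24. Kinase-linked genes were LRRK2, a kinase and GTPase, at 3.14, and KIDINS220, a membrane scaffold for neurotrophin receptors, at 3.78. Inhibitors of signalling were SOCS1, which dampens cytokine receptors, with a ratio of 2.21, DUSP5, a phosphatase of ERK kinases, with 2.29, and NDFIP1, an adaptor of ubiquitin ligases, with 2.12. Of 25 tested genes of the interferon response, a pathway that SOCS1 dampens, 14 were called higher and 1 lower, and none is in the set. Their log2 fold changes had a median of 0.79. With 1 library left out, 10 to 13 were called higher. Over all genes tested the share called higher was 18.6%, and a link with SOCS1 was not tested. irf1b, an interferon regulatory factor, was 18.8, 19.8 and 17.7 CPM in WT and 33.95, 30.4 and 32.9 CPM in mutant libraries, with a log2 fold change of 0.79 (SE 0.07, adjusted p = 2.92e-05).

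The set also holds 4 regulators of transcription. The forkhead factor foxa was 12.8, 14.3 and 12.1 CPM in WT and 74.2, 76.1 and 75.1 CPM in mutant libraries, a ratio of 5.75. The mutant libraries lay close together, and above the WT libraries as the rule requires. The LIM-only factor lmo4a and the E2F coactivator relative sertad3 had ratios of 2.29 and 3.004, and the zinc-finger factor SALL1 one of 2.01. Of 4 transcripts of RNA handling, ASCC1, a subunit of a complex for transcription and alkylation repair, stood highest at 2.57. EFL1, a GTPase of ribosome maturation, and ADAT2, a tRNA deaminase, had ratios of 2.004 and 2.17. SYCP1, a component of the synaptonemal complex of meiotic chromosomes, was 10.7, 12.9 and 12.2 CPM in WT and 20.6, 27.7 and 32.8 CPM in mutant libraries, a ratio of 2.27, and was the only one of the 117 whose mutant libraries lay more than 1.5-fold apart.

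The remaining 33 transcripts were given no role, among them several with clone names. si:dkey-241l7.3 was 68.6, 81.7 and 91.4 CPM in WT and 433, 387 and 385 CPM in mutant libraries, a ratio of 4.99. Its direct neighbour si:dkey-241l7.4 was 291, 275 and 306 CPM in WT and 937, 799 and 787 CPM in mutant libraries, a ratio of 2.90. The rest of this clone name did not move with them. si:dkey-241l7.5 was 1804, 1855 and 2022 CPM in WT and 1985, 1903 and 1827 CPM in mutant libraries, with a log2 fold change of 0.01 (SE 0.06, adjusted p = 0.901). si:dkey-241l7.6 did not pass the test either, with a log2 fold change of 0.06 (SE 0.07, adjusted p = 0.526), and si:dkey-241l7.2 was called lower, with -0.39 (SE 0.10, adjusted p = 0.0129). Without WT replicate 1 or mutant replicate 2, that last call was lost (edgeR adjusted p = 0.0556 and 0.053).

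Genes of a second clone name also differed in direction. si:dkeyp-46h3.3 was 113, 102 and 114 CPM in WT and 328, 286 and 277 CPM in mutant libraries, a ratio of 2.71, and si:dkeyp-46h3.6, with 1 gene between them, had a ratio of 2.11. si:dkeyp-46h3.5 was 1.996, 1.81 and 1.73 CPM in WT and 164, 141 and 140 CPM in mutant libraries, a ratio of 80.4 that put it past the upper limit of the set. Within the clone name, si:dkeyp-46h3.2 was called higher by a log2 fold change of 0.41 (SE 0.05, adjusted p = 0.000267) and si:dkeyp-46h3.8 lower by -0.56 (SE 0.07, adjusted p = 0.000132). How alike the sequences of these genes are was not analysed here, and reads shared between similar copies would make the levels of single copies uncertain. Besides these, zgc:171220 had a ratio of 5.50, si:ch211-214b16.2 one of 5.80 and STARD13, a protein with a lipid-binding domain, one of 5.67.

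The highest mean mutant level belonged to ENSDARG00000117285, which has no symbol in the tables used. It was 33.0, 608 and 683 CPM in WT and 2345, 2298 and 2216 CPM in mutant libraries, a ratio of 5.18. WT replicate 1 stood far below the other WT libraries, with 877 counts beside 10089 and 16593. The fitted log2 fold change was 2.38 with all libraries and 1.82 without WT replicate 1. Its edgeR call, which the choice of the set does not leave as a test, was lost without WT replicate 2, mutant replicate 1, mutant replicate 2 or mutant replicate 3 (adjusted p = 0.0539, 0.0545, 0.0729 and 0.0563) and by DESeq2 (adjusted p = 0.079), from 0.0306 with all libraries. Without this gene, the set took 0.539%, 0.507% and 0.501% of the counts in WT and 1.34%, 1.34% and 1.33% in mutant libraries. In all, 10 transcripts had WT libraries more than 1.5-fold apart. Closest to an overlap came ENSDARG00000097825, listed under a clone name, at 7.53, 16.4 and 6.42 CPM in WT and 20.9, 18.7 and 21.98 CPM in mutant libraries. The next was a gene of 5_8S_rRNA, at 12.1, 6.57 and 17.5 CPM in WT and 21.4, 27.4 and 25.9 CPM in mutant libraries. Over the 117 transcripts, the median coefficient of variation between libraries was 8.27% in WT and 6.31% in the mutant. Over the other 8084 genes with at least 20 CPM in the mutant, it was 4.81% and 5.05%. Those genes were not matched in level to the set, whose median level was 15.2 CPM in WT and 39.3 CPM in the mutant. Counting noise is larger at low levels, and its part in the difference was not tested. The highest mutant value was in replicate 1 for 42 transcripts, in replicate 2 for 32 and in replicate 3 for 43.

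Zebrafish keep many genes as pairs of paralogues, and the symbols of 22 transcripts of the set are shared with 30 other listed genes. Of these others, 19 were tested. edgeR called 5 higher and 2 lower, and 12 had no call, the median of all 19 being 0.09 on the log2 scale. Without mutant replicate 3, 3 were called higher. Copies that met the rule belong to the set, as with the pair of MFAP4 genes, and are left out of these counts. The low median is therefore set in part by the rule. Paralogues with different symbols, such as COL1A1 and col1a1a, were not compared. FN1 was split, since the copy outside the set (ENSDARG00000019815) was 52.8, 53.4 and 54.9 CPM in WT and 48.6, 50.8 and 45.8 CPM in mutant libraries, with a log2 fold change of -0.15 (SE 0.07, adjusted p = 0.118). The copy of CKB outside the set, a creatine kinase, was 827, 750 and 850 CPM in WT and 900, 858 and 820 CPM in mutant libraries, and did not pass the test (log2 fold change 0.09, SE 0.06, adjusted p = 0.302). For TXNIP and TSPAN18, the other copies were called lower. The lowly counted TXNIP copy was 4.48, 3.13 and 4.08 CPM in WT and 1.59, 2.34 and 1.91 CPM in mutant libraries, with a log2 fold change of -1.02 (SE 0.22, adjusted p = 0.00492). The other TSPAN18 had a log2 fold change of -0.32 (SE 0.08, adjusted p = 0.0133), with an adjusted p of 0.0502 by DESeq2. Copies called higher with the set were those of GLUL, KIDINS220, STARD13, TPH1 and MFAP4, with log2 fold changes of 0.26, 0.52, 1.21, 0.67 and 1.08. The STARD13 call was lost without mutant replicate 3 (edgeR adjusted p = 0.0605). The MFAP4 copy has about 1 CPM, and its adjusted p of 0.0386 rose to between 0.0624 and 0.135 when any library other than mutant replicate 2 was left out, and to 0.120 by DESeq2.

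**Figure D5:**
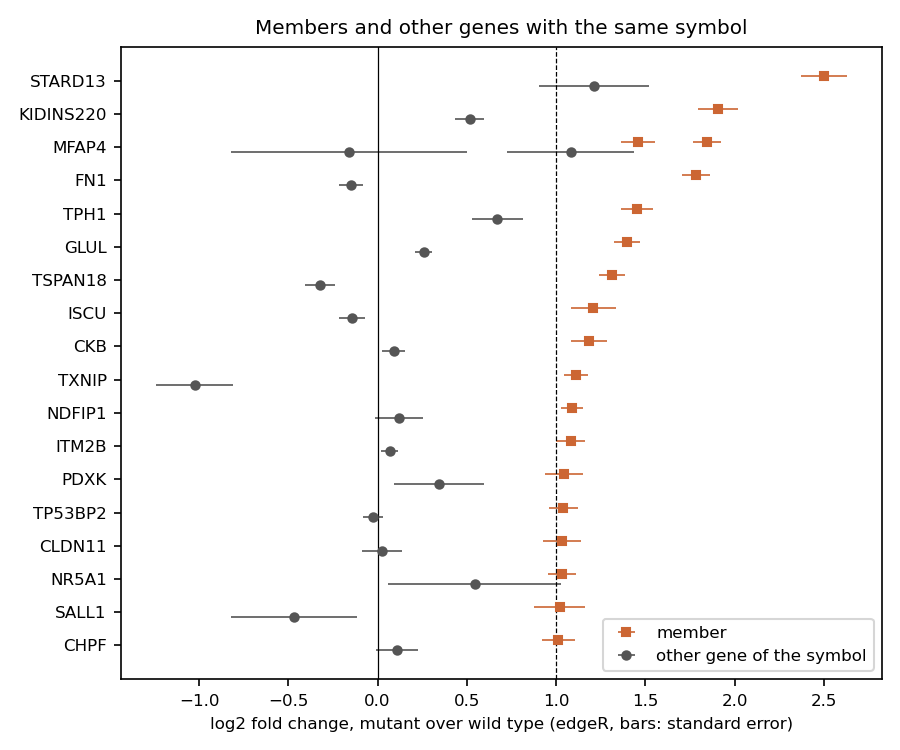
Log2 fold change of mutant over WT from edgeR, with its standard error, for transcripts of the set and for the other tested genes that carry the same symbol. The transcripts of the set lie at about 1 or above by their selection. The other copies, which leave out any copy that met the rule, lie around a median of 0.09.

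The lower limits of the rule had genes close to them on either side. Just inside the level limit were NR5A1, COL1A2 and ENSDARG00000097825, at 20.2, 20.4 and 20.5 CPM, and just outside were si:dkey-224e22.2, MYO7A and RIN2, at 19.9, 19.7 and 19.1 CPM. At the lower ratio limit, appa, EFL1 and SALL1 were inside and MT-CYB, lonrf1 and mt-nd4l outside, and all 6 had ratios between 1.99 and 2.01. The upper limit fell in a gap, with rab5b inside at 6.93 and arl13a outside at 8.02. The requirement that libraries not overlap removed 0 genes that met the other limits. The deposited normalized values were rescaled to a total of 1000000 per library before ratios were taken. By these rescaled values, 107 of the 117 had a ratio of at least 2. The others were between 1.58 and 1.99, the lowest being NR5A1. All 117 had every mutant library above every WT library by these values. Because they come from the same libraries that the rule used, this separation is not a second test. The share of all genes separated by the deposited values is not given here. For si:ch73-25f10.6, the ratio was 4.78 by CPM and 1.81 by the rescaled deposited values, and for FN1 3.44 and 2.46. The quotient of the rescaled deposited ratio and the CPM ratio differed between genes, at 0.379 for si:ch73-25f10.6, 0.717 for FN1 and 0.775 for NR5A1. In the other direction it was 1.41 for STARD13, whose ratio was 5.67 by CPM and 7.96 by the rescaled deposited values. The deposited normalization therefore did more than divide each library by 1 factor, and what it corrected is not given in the sources used here.

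The place of the set relative to ybx1 in the genome was described by gene order only. Of 72 transcripts that could be placed by symbol in the RefSeq gene order, 2 were on the chromosome of ybx1 (2.78%), beside 4.099% of the 6562 placed genes with at least 20 CPM in the mutant. At least 903 genes lay between ybx1 and the nearer of the 2.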

How the data were processed

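RNA from 3 wild-type and 3 ybx1 mutant follicle libraries was extracted with TRIzol and made into libraries with a directional kit, per the labels' protocols. Per the submitters' processing notes, bcl2fastq, FastQC 0.11.5, HISAT2, StringTie and DESeq2 were used with the GRCz11 build. The counting rule and annotation are not given in the sources used here. One deposited table gives whole counts per gene and library, without scaling. The other gives normalized values of those genes, deposited by the authors, which were read as a linear signal and served only as an alternative. They hold a correction that differs between genes, and whether the whole counts are rounded estimates is not known.

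CPM were computed from column sums. The rule left out 2 genes, which, like 1 transcript of the set, are not reported here by name. Calls came from edgeR 4.0.16 in R 4.3.3 (quasi-likelihood test, TMM factors, filterByExpr at 10 counts and 15 counts in total, genotype only, Benjamini-Hochberg adjustment over the 17385 genes tested, adjusted p under 0.05). Simulated data for these genes, with 200 changed 2-fold, gave 147 recovered genes (73.5%) and 5 false calls. The simulated share changed was far below the 33.9% called in the data, and the spread was set by level and not by gene. These figures therefore check the code and do not give the error rates of the real fit. Tables were made with Python 3.11.15 and pandas 2.3.3. The transcripts, gene lists and rules for naming were chosen with earlier results of these data known. The 12 highest by level, the 12 highest by ratio, those on a list, neighbours and those next to a limit were named by rule. The list of 13 mitochondrial messenger RNAs, the role groups, the families, the other genes named by role and the comparison of shared symbols were chosen after values were seen. Symbols came from a table of gene names, as it spells them, and matched 28988 of the 32057 genes and 113 of the 117. Genes of a list were matched by symbol, so that paralogues with 1 symbol count separately. A list symbol without a match was tried again without its paralogue suffix, and then every gene of the shorter symbol counted. In this way the macrophage marker mfap4.1 brought the MFAP4 genes into the immune cell list. Depth was 16600019 to 37764782 counts per library. Alternatives were DESeq2 size factors, upper-quartile factors, library size alone, the DESeq2 1.42.0 Wald test, no filter, a replicate block, leaving out each library, and other limits and scalings of the rule. Libraries with the same replicate number were not shown to be paired.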

Additional observations from a re-analysis of the deposited data

How the results depend on the processing

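The number of transcripts in the set followed the limits of its rule. It was 208 with at least 10 CPM, 57 with at least 40 CPM, 312 with a ratio of at least 1.5 and 28 with a ratio of at least 3. By scaling it moved little, with 119 by TMM-scaled library sizes, 116 by DESeq2 size factors, 118 by the deposited normalized values (107 of them shared) and 121 when mitochondrial messenger RNAs were left out of the library total, an alternative chosen after seeing the data. Leaving out 1 library gave 111 to 118 transcripts, a median log2 ratio of 1.24 to 1.31, a median coefficient of variation of 6.75% to 7.48% in WT, and one of 3.46% to 6.32% in the mutant, the lowest without mutant replicate 1. It also gave 4489 to 5326 genes called in all, 2545 to 2921 higher and 1944 to 2421 lower, beside 5890, 3226 and 2664 with all libraries. A fit with the replicate number as a block called 6110 genes, 3272 higher and 2838 lower. Libraries with the same number deviated together with correlations of 0.1003, 0.0302 and 0.1427. No correlations between libraries of different numbers were set beside these, so whether a number marks a shared batch was not tested. Single genes were followed under 12 alternatives for 75 of the genes named here, and the other named genes were not followed. Of the 75, 65 kept their direction and their side of the threshold throughout. At least once, 8 crossed it, ENSDARG00000117285 being the only transcript of the set among them. FDPS and si:dkey-241l7.5, which had no call, changed sign, from -0.0442 to 0.144 and from -0.0244 to 0.0669 on the log2 scale over the fits that left out 1 library. The cause was not tested. Precision is limited by 3 libraries per genotype and by depth.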

Other observations

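Relatives of some transcripts of the set were looked up after their values were seen, and the counts below describe families chosen in that way. They include the transcripts of the set, which are higher by their selection. Over all genes tested, edgeR called 18.6% higher. Type IV collagens form the network of basement membranes, and 5 of 6 tested were called higher, 1 of them in the set, and 0 lower by edgeR. The largest difference was that of col4a3, at 1.05, 1.205 and 1.65 CPM in WT and 12.8, 15.03 and 17.1 CPM in mutant libraries, with a log2 fold change of 3.52 (SE 0.18, adjusted p = 8.89e-07). Laminins, the other network of these membranes, had 6 of 11 called higher, 1 of them in the set, and 0 lower. A LAMB1 gene was 47.2, 44.16 and 30.4 CPM in WT and 76.0, 81.9 and 81.3 CPM in mutant libraries, with a log2 fold change of 0.98 (SE 0.13, adjusted p = 0.000319). CCN factors, to which CCN2 belongs, had 4 of 4 called higher, CCN2 itself included, and 3 without mutant replicate 2. CCN4 was 2.298, 2.23 and 1.94 CPM in WT and 9.12, 8.01 and 10.1 CPM in mutant libraries. At an unadjusted p under 0.05 edgeR placed 1 laminin gene lower and 0 genes of the other families. DESeq2 called 0 genes of these 3 families lower.

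Of 8 listed genes for the enzymes that lead from tryptophan through serotonin to melatonin, 5 were tested. None of these was a gene of ASMT, an enzyme also sought for this route. All 5 tested genes were called higher, 2 of them in the set, and this count was the same under each alternative run. Besides DDC and the TPH1 gene of the set, they were the second TPH1, with a log2 fold change of 0.67 (SE 0.14, adjusted p = 0.00518), and both N-acetyltransferases. AANAT was 6.22, 7.83 and 6.38 CPM in WT and 12.6, 13.4 and 15.04 CPM in mutant libraries, and aanat2 was 3.54, 3.86 and 4.16 CPM in WT and 10.3, 7.07 and 6.54 CPM in mutant libraries. Tubulins were mixed by level. Of 15 tested alpha and beta tubulins, 6 were called higher, 2 of them in the set, and 0 lower by edgeR, also 0 lower at an unadjusted p under 0.05 and by DESeq2, while the highly counted tubb4b was 1573, 1499 and 1552 CPM in WT and 1762, 1621 and 1562 CPM in mutant libraries and did not pass the test (log2 fold change 0.10, SE 0.06, adjusted p = 0.214).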
